A study of Oryza sativa Indica Group with 27 samples.

Results

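Calcineurin B-like proteins (CBLs) are small calcium sensors, and CBL-interacting protein kinases (CIPKs) are the protein kinases they bind. Their transcripts were followed in whole seedlings of 3 rice cultivars during the first hours of salt stress. A gene was taken as a member when its symbol or a synonym, with the prefix Os removed, read CBL or CIPK followed by a number. The rice annotation names 39 such genes, 9 CBLs and 30 CIPKs. A probe set assigned to that gene alone was found for 31 of them, 7 CBLs and 24 CIPKs, out of 17905 genes measured in this way. Where a member had several, the one of highest mean signal over all arrays stood for it. The 8 members with no such probe set were CBL1, CBL7, CIPK3, CIPK9, CIPK13, CIPK15, CIPK27 and CIPK33, and they were not analysed here.

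A CBL carries EF hands, loops that bind calcium. When a stimulus raises cytosolic calcium, the loaded sensor binds the NAF motif in the regulatory region of a CIPK, which frees the kinase domain and often places it at a membrane. Many of the known targets are ion transporters: in the salt overly sensitive (SOS) pathway, CBL4 (SOS3) and CIPK24 (SOS2) switch on the sodium/proton antiporter SOS1, and in rice the pair CBL1 and CIPK23 activates the potassium channel AKT1. CIPKs form the SnRK3 group of plant kinases and are relatives of the SnRK2 kinases of abscisic acid signalling.

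The study set Nonabokra, Pokkali and IR29 side by side, indica cultivars that the series describes as salt tolerant or susceptible. Seedlings raised in hydroponics for 7 days were moved to 200 mM sodium chloride in the light for 3 h or 6 h, while control seedlings stayed in growth medium for 6 h, so the 3 h salt groups have no control of their own duration. Each of the 9 groups (Nonabokra, Pokkali or IR29, each as control, 3 h of salt or 6 h of salt) has 3 arrays that the labels call biological replicates, 27 Affymetrix rice arrays in all. For the 3 h samples, one label field mentions drought and all others salt, and they were treated as salt. Values are linear intensities, and changes are differences of log2(intensity + 16), a scale that shrinks changes of dim probe sets. A change passed when limma's adjusted p (Benjamini-Hochberg over 57194 probe sets) was under 0.05. The level of one probe set says nothing about the level of another, so levels are compared only within a gene.

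Upper quartiles of the arrays ran from 158 to 175. No columns were identical. The lowest correlation between arrays of a group was 0.9957, and the arrays least like their groups were IR29 6 h replicate 1, Nonabokra control replicate 3 and Nonabokra 6 h replicate 1. The tissue label was checked with organ markers. Signal of 4 of 5 listed green shoot genes summed to between 64880 and 81240 on all arrays. Signal of 5 of 6 listed root genes, most of it from the silicon transporters Lsi1 and Lsi2, moved with salt. It summed to 7601 to 8471 in Nonabokra controls, 2288 to 2411 at 3 h and 4965 to 5525 at 6 h. The Pokkali sums were 4974 to 5146, 1274 to 1507 and 2732 to 2953, and the IR29 sums were 8957 to 9906, 584 to 651.8 and 1817 to 2297. The summed root signal was lower at both salt times in every cultivar, but the sum follows the silicon transporters, and the list as a whole did not move one way. At 3 h, 3 of the 5 root genes passed as higher and 2 as lower in Nonabokra, 1 and 2 in Pokkali, and 1 and 4 in IR29, with median changes of 0.66, -0.16 and -2.62. The 6 h counts were 3 and 1, 2 and 2, and 1 and 3, with medians of 0.41, -0.11 and -0.35. The root genes that rose in Nonabokra at both times were the endodermal gene CASP1, the iron transporter IRT1 and the phosphate transporter PT4, all dim beside Lsi1 and Lsi2. Of the 5 seed remnant genes, the starch-degrading amylase AMY1.1 had 23000 to 25810 in IR29 at 3 h against 135.4 to 178.6 in IR29 controls, and the seed storage gene GLUA1 stayed below 5 everywhere. In Nonabokra the signal of the 5 seed remnant genes summed to 4813 to 5044 in controls. The sum was lower with salt, at 1817 to 1995 at 3 h and 1411 to 1531 at 6 h, but the list as a whole did not fall. Of the 5 genes, 1 passed as higher and 1 as lower at 3 h, and 1 and 2 at 6 h. Their median changes were 0.01 and -0.06. The mean log2 signal of the poly-A spikes, added RNAs that report labelling, was 7.68 to 8.70 on control arrays, 7.52 to 7.95 at 3 h and 6.14 to 7.15 at 6 h. In whole seedlings, fewer cells of a type and less RNA per cell cannot be told apart, and the part of the marker and spike shifts in the member results below was not tested.

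Passing members were most numerous at 3 h in Nonabokra, where 20 of the 31 members were higher (13.0% of all probe sets were) and 4 were lower (14.9% of all). In Pokkali at 3 h, 13 were higher (11.8% of all) and 7 lower (13.4%). In IR29 at 3 h, 16 were higher (15.7%) and 7 lower (48.2%). At 6 h, 10 members were higher and 7 lower in each cultivar. The shares of all probe sets then were 10.2% higher and 12.2% lower in Nonabokra, 10.1% and 12.1% in Pokkali, and 12.0% and 41.4% in IR29. The large IR29 shares of lower probe sets went with a median change over all probe sets of only -0.009 at 3 h and -0.008 at 6 h, and CIPK20 and CIPK30, among the 7 lower members at both times, changed by no more than 0.01. With each array centred on its median, IR29 at 3 h had 25666 probe sets higher and 8653 lower instead of 8990 and 27590, and the members split into 20 higher and 4 lower. IR29 at 6 h had 15312 probe sets higher and 6910 lower with that centring, and 11 members higher and 4 lower.

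The bright probe sets of the array give a closer background, since most members are bright. Of the 31 members, 23 had a mean intensity over 100, as did 17214 probe sets in all. Among those probe sets, 66.8%, 61.1% and 67.2% passed at 3 h in Nonabokra, Pokkali and IR29, against 20, 17 and 17 of the 23 bright members (87.0%, 73.9% and 73.9%). At 6 h the shares were 54.7%, 49.5% and 55.7%, against 14, 16 and 13 bright members (60.9%, 69.6% and 56.5%). IR29 at 6 h was closest to its background. At 3 h in Nonabokra 16 bright members were higher and 4 lower, where 31.7% of bright probe sets were higher and 35.1% lower. The median change of all 31 members there was 0.50, and the median over all probe sets was -0.002.

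Larger changes were counted with a stricter rule, a passing change of at least 1 on the log2 scale with no overlap between the 3 salt and the 3 control arrays. At 3 h in Nonabokra, 10 members were higher by this rule (3.58% of all probe sets) and 2 lower (3.27%). Pokkali at 3 h had 5 higher (2.69%) and 1 lower (2.76%), and IR29 had 3 higher (2.80%) and 1 lower (1.58%). At 6 h the counts were 2 higher (1.80%) and 1 lower (2.02%) in Nonabokra, 4 higher (2.08%) and 5 lower (1.15%) in Pokkali, and 2 higher (1.79%) and 1 lower (0.886%) in IR29. The members behind these counts are described below by gene.

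**Figure D1:**
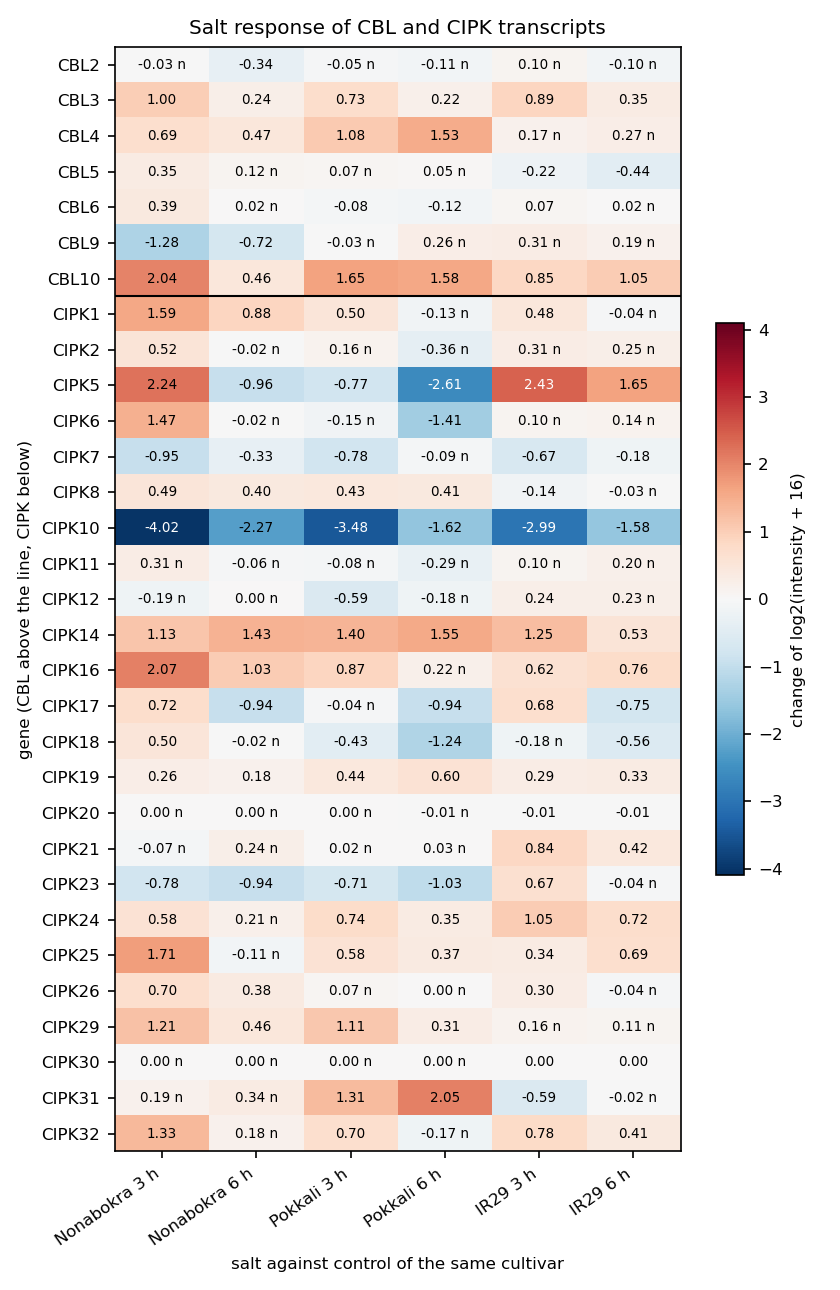
Change of each of the 31 members in 6 salt comparisons, as differences of log2(intensity + 16) against the control of the same cultivar (means of 3 arrays, red higher, blue lower, n marks a change that did not pass). CIPK10 is the deepest blue row, from -4.02 to -1.58, while CIPK5 changes colour between cultivars.

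Across cultivars, 9 members rose in all 3 at 3 h (6.86% of all probe sets did): CBL3, CBL10, CIPK1, CIPK14, CIPK16, CIPK19, CIPK24, CIPK25 and CIPK32. CIPK7 and CIPK10, 2 members, fell in all 3 at 3 h (6.68% of all). At 6 h, CBL3, CBL10, CIPK14 and CIPK19, 4 members, were higher in all 3 cultivars (4.31%), and CIPK10 and CIPK17, 2 members, were lower in all 3 (3.57%). The same 4 rose in all 6 salt comparisons (3.41%), and on the probe sets chosen CIPK10 alone fell in all 6 (2.58%). A second probe set of CIPK7 fell in all 6 as well. CIPK11 was the 1 member that passed in no salt comparison (19.4% of all probe sets), and its changes lay between -0.29 and 0.31. Another 8 members passed as higher in one cultivar and lower in another at 3 h (3.22%): CBL5, CBL6, CIPK5, CIPK8, CIPK12, CIPK18, CIPK23 and CIPK31. At 6 h that held for 1 member, CIPK5 (3.13%). Of the 8 at 3 h, CBL5 and CIPK12 were dim, with no array above 28.18 and 33.38. The CBL6 fall in Pokkali, from a mean of 1594 to 1506, and the CIPK8 fall in IR29, from 538.4 to 486.5, were small. The other probe set of CIPK23 had no passing change at 3 h.

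Among the sensors, CBL10 (LOC4325933) rose in every cultivar at both times. In Arabidopsis, CBL10 works with SOS2 in the shoot, and rice CBL10 has been linked to germination under flooding. Its intensities in Nonabokra were 204.9, 235 and 237.6 in controls, 958.9, 993.3 and 982.4 at 3 h, and 343.3, 303.7 and 301.1 at 6 h. Pokkali gave 240.8, 236.2 and 212.6 in controls, 837.5, 730.7 and 707.7 at 3 h, and 721.6, 725.5 and 708.9 at 6 h. IR29 controls had 260.7, 238 and 234.3, the 3 h arrays 443.9, 454.2 and 463.8, and the 6 h arrays 555.7, 490.5 and 525.9. All 9 control arrays lay between 204.9 and 260.7, every salt array lay above the controls of its cultivar, and by 6 h the signal had come most of the way back in Nonabokra but not in Pokkali or IR29. The log2 changes at 3 h were 2.04 in Nonabokra, 1.65 in Pokkali and 0.85 in IR29, each with an SE of 0.07 (limma, adjusted p = 2.6e-15, 1.0e-13 and 3.2e-09). At 6 h they were 0.46, 1.58 and 1.05 (limma, adjusted p = 1.9e-05, 3.8e-13 and 2.4e-10). The response at 3 h was larger in Nonabokra than in IR29 by 1.19 (SE 0.09, limma, adjusted p = 1.0e-08), and in Pokkali than in IR29 by 0.80 (SE 0.09, limma, adjusted p = 2.4e-06).

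CBL3 (LOC4333502), whose Arabidopsis relatives CBL2 and CBL3 sit on the vacuolar membrane, rose early and then mostly subsided. Nonabokra had 1513, 1473 and 1402 in controls, 3279, 2829 and 2738 at 3 h, and 1606, 1741 and 1868 at 6 h. Pokkali went from 1908, 1821 and 1786 to 3302, 2949 and 2944 and then to 2081, 2122 and 2221, and IR29 from 1253, 1289 and 1282 to 2488, 2315 and 2345 and then to 1448, 1790 and 1660. No salt array of CBL3 overlapped its controls. The changes at 3 h were 1.00, 0.73 and 0.89 (SE 0.07) in Nonabokra, Pokkali and IR29, and those at 6 h 0.24, 0.22 and 0.35. The differences of response between cultivars did not pass for CBL3. CBL2 (LOC4352701) had changes between -0.34 and 0.10, of which only the -0.34 in Nonabokra at 6 h passed (SE 0.06, limma, adjusted p = 9.4e-05).

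CBL4 (LOC4339432), the rice SOS3, was dim and rose in Nonabokra and Pokkali. The Pokkali arrays had 23.27, 23.95 and 23.43 in controls, 65.43, 76.77 and 61.95 at 3 h, and 97.29, 108.2 and 89.69 at 6 h. Nonabokra had 32.84, 51.71 and 27.97 in controls, 70.81, 70.22 and 64.91 at 3 h, and 48.05, 59.59 and 63.53 at 6 h. IR29 arrays had 39.16, 48.16 and 45.01 in controls, 47.3, 53.54 and 53.54 at 3 h, and 53.6, 59.57 and 55.75 at 6 h. Pokkali had the lowest controls and, at 6 h, the highest salt arrays, the Nonabokra 6 h arrays overlapped a high control (replicate 2), and the IR29 groups overlapped at 3 h. The log2 changes at 3 h were 0.69 in Nonabokra, 1.08 in Pokkali and 0.17 in IR29, each with an SE of 0.12 (limma, adjusted p = 7.5e-05, 2.5e-07 and 0.22). At 6 h they were 0.47, 1.53 and 0.27 (limma, adjusted p = 0.0045, 2.7e-09 and 0.059). The 95% interval of the IR29 change was -0.08 to 0.41 at 3 h and 0.03 to 0.51 at 6 h. The IR29 6 h change stood at 0.30 and passed once the 3 arrays least like their groups were left out, and the Nonabokra changes did not pass in a fit of only the groups compared (limma, adjusted p = 0.060 at 3 h and 0.26 at 6 h). The Pokkali response exceeded that of IR29 by 0.92 at 3 h (SE 0.16, limma, adjusted p = 0.00034) and by 1.26 at 6 h (SE 0.16, limma, adjusted p = 1.2e-05).

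CBL9 (LOC9269084) fell in Nonabokra. Its Nonabokra controls had 236.8, 246.9 and 236.9, against 92.28, 79.18 and 97.65 at 3 h and 105, 160.3 and 161.9 at 6 h. Pokkali ran between 33.8 and 63.27 over all 9 arrays, and IR29 between 95.05 and 169.2. Nonabokra controls were thus above every other array of this gene, and the Nonabokra 6 h arrays lay within the IR29 range. The Nonabokra changes were -1.28 at 3 h and -0.72 at 6 h (SE 0.17, limma, adjusted p = 3.0e-06 and 0.0028). The changes in the other cultivars did not pass, with 95% intervals reaching from -0.38 to 0.66. The probe set is of a kind that can bind related transcripts. A second probe set of the gene, of the same kind, gave -1.35 and -0.52 in Nonabokra, which passed, and no passing change elsewhere.

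The remaining sensors moved little. CBL6 (LOC4351575) rose by 0.39 in Nonabokra at 3 h, from 1522, 1558 and 1599 to 2031, 2038 and 2061, and its other 5 changes lay between -0.12 and 0.07. CBL5 (LOC4325962, also listed as CBL2) had no array above 28.18, rose by 0.35 in Nonabokra at 3 h, and fell in IR29, with changes of -0.22 and -0.44.

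Among the kinases, CIPK10 (LOC4332786) showed the steepest change. Its intensities in Nonabokra were 6684, 6638 and 4660 in controls, 377.7, 305.8 and 368.6 at 3 h, and 880.1, 1455 and 1383 at 6 h. Pokkali had 4057, 3918 and 3863 in controls, 403.3, 304.4 and 317.3 at 3 h, and 1215, 1240 and 1380 at 6 h. IR29 had 3674, 3494 and 3493 in controls, 490.7, 438.1 and 381 at 3 h, and 771.3, 1471 and 1447 at 6 h. Every control array stood above every 6 h array, and every 6 h array above every 3 h array, in all cultivars. The log2 changes at 3 h were -4.02, -3.48 and -2.99 in Nonabokra, Pokkali and IR29 (SE 0.21), a signal 16.2-fold, 11.2-fold and 7.92-fold lower (limma, adjusted p = 4.5e-12, 5.7e-11 and 7.7e-10). At 6 h the changes were -2.27, -1.62 and -1.58 (limma, adjusted p = 4.9e-08, 6.1e-06 and 9.6e-06). The fall at 3 h was deeper in Nonabokra than in IR29 by 1.03 (SE 0.30, limma, adjusted p = 0.018), and the other 5 differences between cultivars did not pass. The other 3 probe sets of the gene fell in all 6 comparisons as well, with changes from -4.20 to -1.05.

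CIPK7 (LOC4333514, also listed as TATA and THA4), which has been linked to chilling in rice, followed the same course on a smaller scale on its brighter probe set. Nonabokra had 4130, 4435 and 4442 in controls, 2140, 2283 and 2269 at 3 h, and 3760, 3358 and 3245 at 6 h. At 3 h the changes were -0.95, -0.78 and -0.67 in Nonabokra, Pokkali and IR29 (SE 0.07), with no overlap between salt and control arrays. At 6 h they were -0.33, -0.09 and -0.18, of which the Pokkali one did not pass. A second probe set of the gene fell in all 6 comparisons, with changes from -2.35 to -1.27, so the 2 probe sets disagreed on the size at both times.

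CIPK14 (LOC4351307), known from defence responses to elicitors in rice cells, rose in all 6 comparisons. Nonabokra had 1858, 1928 and 1542 in controls, 4094, 3619 and 3985 at 3 h, and 4196, 5227 and 4986 at 6 h. Pokkali had 696.6, 740.4 and 772.6, then 2157, 1898 and 1858, then 2132, 2142 and 2306. IR29 had 2974, 2840 and 2902, then 7245, 6965 and 6658, then 3461, 4574 and 4639. The rise held from 3 h to 6 h in Nonabokra and Pokkali and was partly lost in IR29, and no salt array overlapped its controls. The changes at 3 h were 1.13, 1.40 and 1.25 (SE 0.10, limma, adjusted p = 2.1e-08, 1.1e-09 and 7.0e-09). At 6 h they were 1.43, 1.55 and 0.53 (limma, adjusted p = 1.2e-09, 3.9e-10 and 0.00062). CIPK19 (LOC4339306) also rose in all 6 comparisons, but by no more than 0.60. Its lowest and highest values were 1016 and 1142 over the 9 control arrays and 1149 and 1667 over the 18 salt arrays.

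**Figure D2:**
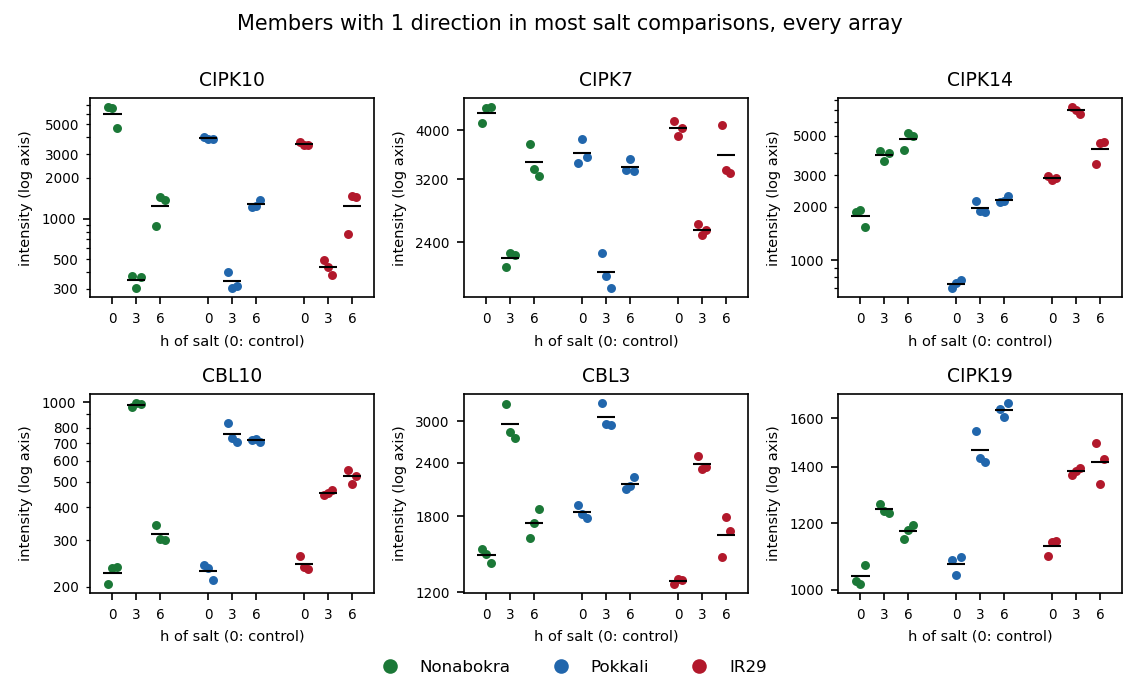
Intensity (log axis) on every array of 6 members that moved one way in most salt comparisons, by hours of salt (0 is the control) and cultivar. Points are arrays and black lines the mean of 3 arrays. CIPK10 drops to between 304.4 and 490.7 at 3 h and is partly back at 6 h, while CBL10 stays high at 6 h in Pokkali and IR29.

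A further group rose at 3 h in all cultivars and most strongly in Nonabokra. CIPK1 (LOC4325161) went from 1424, 1530 and 1337 to 4598, 4089 and 4291 in Nonabokra, a change of 1.59 (SE 0.07, limma, adjusted p = 4.3e-13), against 0.50 in Pokkali and 0.48 in IR29. CIPK25 (LOC4341236) went from 349.8, 308.8 and 330.1 to 1089, 1171 and 1074 in Nonabokra, a change of 1.71 (SE 0.09, limma, adjusted p = 1.0e-11), against 0.58 and 0.34. CIPK32 (LOC4351419) went from 1410, 1424 and 1268 to 3678, 3247 and 3460 in Nonabokra, a change of 1.33 (SE 0.08, limma, adjusted p = 3.0e-11), against 0.70 and 0.78. For these 3 kinases, the Nonabokra response at 3 h was larger than that of IR29 by 1.11, 1.36 and 0.55, and larger than that of Pokkali by 1.09, 1.13 and 0.63, and all 6 differences passed. Their Nonabokra 3 h arrays lay well clear of the controls. The larger change did not mean the highest 3 h level. For CIPK1 the 3 h mean was 4326 in Nonabokra and 4579 in IR29. For CIPK32 it was 3461 in Nonabokra and 4176 in Pokkali. By 6 h CIPK25 was back at 334.1, 306.9 and 271.7 in Nonabokra, while in IR29 it had gone on from 621, 719.6 and 651.3 to 1033, 809.9 and 731.3.

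CIPK16 (LOC4347071) was dim in the controls of Nonabokra and IR29. The Nonabokra arrays had 10.88, 15.61 and 16.08 in controls, 80.16, 119.9 and 138.6 at 3 h, and 42.75, 45.95 and 48.41 at 6 h. IR29 had 6.953, 5.866 and 5.707, then 13.53, 20.03 and 21.41, then 19.86, 22.22 and 22.83. Pokkali had 60.3, 56.64 and 54.12, then 137.5, 87.02 and 133.6, then 77.63, 76.04 and 54.8. Salt and control arrays were apart except in Pokkali at 6 h, where a salt array fell among the controls. The 3 h changes were 2.07, 0.87 and 0.62 in Nonabokra, Pokkali and IR29 (SE 0.16, limma, adjusted p = 1.3e-09, 0.00020 and 0.0026), and at 6 h 1.03, 0.22 and 0.76, of which the Pokkali one did not pass. With a pseudocount of 1 in place of 16, the Nonabokra change at 3 h was 2.89, and with 64 it was 1.16. The probe set is of a kind that can bind related transcripts.

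CIPK29 (LOC4344285) rose in Nonabokra and Pokkali. It went from 60.74, 58.77 and 61.29 to 156.5, 151 and 174.3 at 3 h in Nonabokra and from 88.26, 88.26 and 86.16 to 217.2, 211.7 and 195.8 in Pokkali. In IR29 it had 76.21, 81.39 and 62.64 in controls and 85.07, 81.35 and 84.33 at 3 h. The 3 h arrays were clear of the controls in Nonabokra and Pokkali and met them in IR29. The changes were 1.21, 1.11 and 0.16 (SE 0.07, limma, adjusted p = 2.9e-11, 1.4e-10 and 0.057). CIPK8 (LOC4326419) also rose in Nonabokra and Pokkali, by 0.49 and 0.43 at 3 h and by 0.40 and 0.41 at 6 h, while its IR29 changes were -0.14, which passed, and -0.03.

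CIPK24 (LOC4341477), the rice SOS2 and the partner of CBL4, rose in all cultivars at 3 h. Nonabokra had 409.2, 445.4 and 354 in controls, 658.9, 566.5 and 601.5 at 3 h, and 425.1, 474.7 and 505.3 at 6 h. Pokkali had 377.7, 450.2 and 362.5, then 710, 672 and 627.7, then 492.8, 517.4 and 514. IR29 had 325.2, 312 and 336.8, then 707.7, 670.6 and 692.6, then 483.4, 628.3 and 532. All 3 h arrays were above the controls, and at 6 h only the Nonabokra arrays overlapped them. The changes at 3 h were 0.58, 0.74 and 1.05 in Nonabokra, Pokkali and IR29 (SE 0.09, limma, adjusted p = 5.0e-05, 3.0e-06 and 2.5e-08). At 6 h they were 0.21, 0.35 and 0.72 (limma, adjusted p = 0.14, 0.0099 and 7.3e-06). The 95% interval of the Nonabokra change at 6 h was 0.01 to 0.41. The Pokkali change at 6 h did not pass in a fit of only the groups compared (limma, adjusted p = 0.063) or without Pokkali control replicate 3, when it was 0.29 (limma, adjusted p = 0.059).

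Between Nonabokra and IR29, the responses of the 2 SOS genes differed with opposite signs at 3 h. CIPK24 responded less in Nonabokra than in IR29, with a difference of -0.47 at 3 h (SE 0.13, limma, adjusted p = 0.016) and -0.51 at 6 h (SE 0.13, limma, adjusted p = 0.012). CBL4 responded more in Nonabokra, by 0.52 at 3 h (SE 0.16, limma, adjusted p = 0.028), and its difference of 0.20 at 6 h did not pass (limma, adjusted p = 0.37). These CIPK24 and CBL4 differences were not recomputed under other settings. CBL4 is dim, and its Nonabokra rise at 3 h did not pass in a fit of only the groups compared (limma, adjusted p = 0.06). The CIPK24 differences between Pokkali and IR29 were -0.32 and -0.37 and did not pass (limma, adjusted p = 0.060 and 0.086). In unstressed seedlings CIPK24 was higher in Nonabokra and Pokkali than in IR29 by 0.29 and 0.27 (SE 0.09, limma, adjusted p = 0.015 and 0.019), whereas the CBL4 difference between Pokkali and IR29 was -0.60 (SE 0.12, limma, adjusted p = 0.00035).

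CIPK5 (LOC4327093) had the widest differences between cultivars. Its intensities in Nonabokra were 245.6, 278.8 and 241 in controls, 1259, 1240 and 1279 at 3 h, and 125.2, 118.1 and 126.5 at 6 h. Pokkali had 444.8, 508 and 461.7 in controls, 280.8, 265.1 and 264.7 at 3 h, and 66.99, 66.91 and 57.92 at 6 h. IR29 had 25.44, 49.11 and 40.85 in controls, 274.3, 263.7 and 277.1 at 3 h, and 163.5, 156.1 and 137.2 at 6 h. No 2 groups of a cultivar overlapped: Nonabokra went up and then below its start, Pokkali went down throughout, and IR29 went up and stayed above its start. Against control, the 3 h changes were 2.24, -0.77 and 2.43 (SE 0.11, limma, adjusted p = 1.1e-12, 9.4e-06 and 6.1e-13). At 6 h they were -0.96, -2.61 and 1.65 (limma, adjusted p = 6.5e-07, 2.7e-13 and 3.8e-10). The difference between Pokkali and IR29 was -3.19 at 3 h and -4.26 at 6 h (SE 0.15, limma, adjusted p = 5.9e-12 and 1.1e-13). Nonabokra and IR29 differed by -0.19 at 3 h, which did not pass (limma, adjusted p = 0.33), and by -2.61 at 6 h (SE 0.15, limma, adjusted p = 1.4e-10). Which of these cultivars had the larger change at 3 h depends on the pseudocount, since the IR29 controls were dim. With a pseudocount of 1 the 3 h changes were 2.3 in Nonabokra and 2.84 in IR29, and with 64 they were 2.05 and 1.72. The 3 h difference itself was not recomputed with these pseudocounts, so neither its sign nor an equal response is read from it.

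CIPK6 (LOC4345687) changed in one comparison of Nonabokra and one of Pokkali. Nonabokra had 417.2, 476.4 and 472.1 in controls, 1124, 1403 and 1365 at 3 h, and 539.8, 412.3 and 404.3 at 6 h. Pokkali had 929.8, 907.2 and 922.7 in controls, 799.2, 825 and 863.5 at 3 h, and 318.7, 336.7 and 353 at 6 h. IR29 stayed between 598.8 and 802.7 on its 9 arrays. Nonabokra thus showed a rise at 3 h that was gone at 6 h, and Pokkali a fall that came at 6 h. The Nonabokra change at 3 h was 1.47 and the Pokkali change at 6 h -1.41 (SE 0.10, limma, adjusted p = 2.4e-10 and 1.1e-09). The IR29 changes were 0.10 and 0.14, with 95% intervals of -0.11 to 0.31 and -0.07 to 0.35.

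CIPK31 (LOC4332665, also listed as CIPK3 and described as the stress-responsive kinase OsCK1) rose in Pokkali. The Pokkali arrays had 910.3, 1033 and 931.2 in controls, 2626, 2265 and 2336 at 3 h, and 4314, 4520 and 3336 at 6 h. IR29 had 1504, 1434 and 1459 in controls, 980, 1040 and 886.9 at 3 h, and 964, 1823 and 1715 at 6 h. Nonabokra had 1246, 1578 and 1739 in controls, 1530, 1797 and 1840 at 3 h, and 1301, 2276 and 2344 at 6 h. Pokkali groups were far apart, and the IR29 and Nonabokra groups at 6 h were spread by their low replicate 1, an array among the least like its group in both. The Pokkali changes were 1.31 and 2.05 (SE 0.22, limma, adjusted p = 6.1e-05 and 3.0e-07). In IR29 the 3 h change was -0.59 (limma, adjusted p = 0.023), and the Nonabokra changes of 0.19 and 0.34 did not pass. Pokkali exceeded IR29 by 1.91 at 3 h and 2.07 at 6 h (SE 0.30, limma, adjusted p = 9.9e-05 and 5.0e-05). Without the 3 arrays least like their groups the 6 h difference was 1.78. A second probe set of the gene, of a kind that can bind related transcripts, rose in Pokkali by 1.06 and 1.26 and in Nonabokra by 0.56 at 6 h, and fell in IR29 by 0.65 at 3 h.

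CIPK23 (LOC4342410), the kinase of the AKT1 channel, fell in Nonabokra and Pokkali. Nonabokra had 1624, 1573 and 1529 in controls, 952.5, 876.9 and 905.1 at 3 h, and 663.3, 929 and 880.3 at 6 h. Pokkali had 1690, 1642 and 1551, then 1007, 1010 and 955.8, then 774.5, 790.6 and 806.9. IR29 had 644, 587.7 and 661.2, then 1029, 997.6 and 1006, then 575.7, 655.3 and 608.3. At 3 h all 9 arrays lay between 876.9 and 1029, from controls that were higher in Nonabokra and Pokkali and lower in IR29, and IR29 was back among its controls at 6 h. The changes at 3 h were -0.78, -0.71 and 0.67 (SE 0.08, limma, adjusted p = 1.6e-07, 7.6e-07 and 1.8e-06), and at 6 h -0.94, -1.03 and -0.04 (limma, adjusted p = 2.0e-08, 5.9e-09 and 0.72). These values hold for the brighter probe set only. The other probe set of the gene, with a mean intensity of 686.3, gave changes of -0.09, -0.12 and 0.01 at 3 h and -0.05, -0.35 and -0.12 at 6 h, of which only the Pokkali change at 6 h passed, and none of its differences between cultivars passed.

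**Figure D3:**
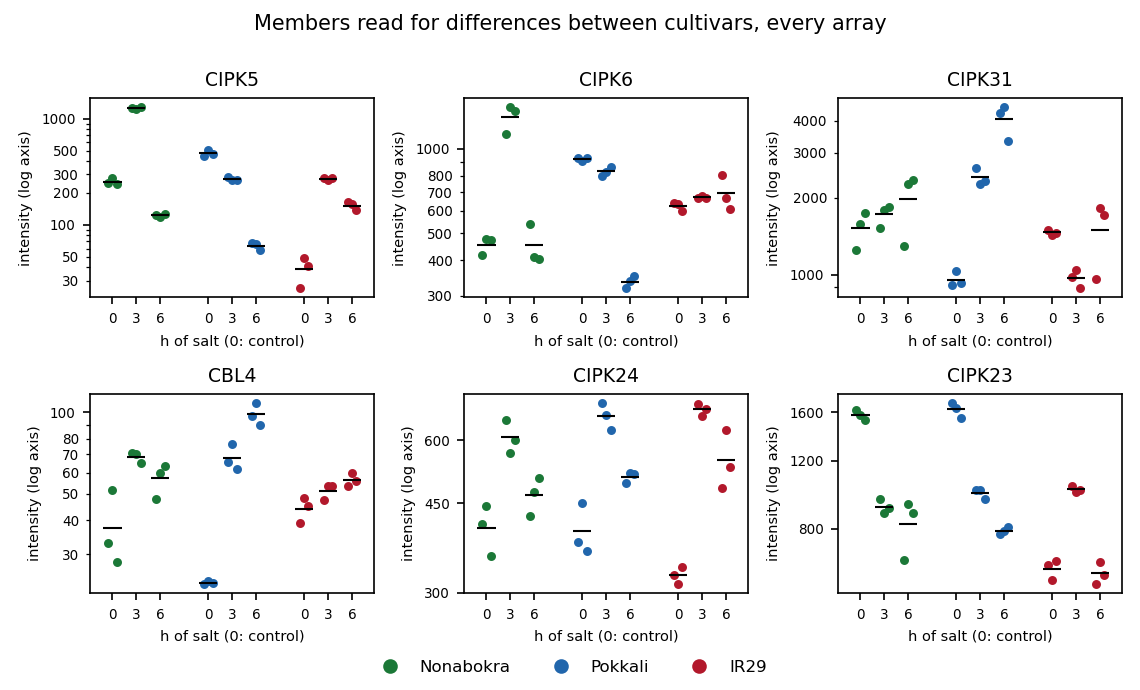
Intensity (log axis) on every array of 6 members with differences between cultivars, by hours of salt (0 is the control). Points are arrays and black lines the mean of 3 arrays. CIPK5 peaks at 1240 to 1279 in Nonabokra at 3 h while Pokkali runs down to between 57.92 and 66.99 at 6 h.

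CIPK17 (LOC4337736), CIPK18 (LOC4338445, also listed as CIPK22) and CIPK21 (LOC4344036) showed further patterns. CIPK17 rose at 3 h in Nonabokra and IR29, by 0.72 and 0.68 (SE 0.11), and was lower than control in all cultivars at 6 h, with changes of -0.94, -0.94 and -0.75. Its IR29 arrays had 166.2, 168.9 and 180.8 in controls, 275.9, 291.9 and 285.9 at 3 h, and 75.5, 120.1 and 96.26 at 6 h. CIPK18 fell in Pokkali, from 659.3, 671.5 and 714.9 to 525.5, 478.1 and 501.8 and then to 270.1, 268.9 and 299.8, changes of -0.43 and -1.24 (SE 0.10, limma, adjusted p = 0.0017 and 4.6e-09). It rose by 0.50 in Nonabokra at 3 h and fell by 0.56 in IR29 at 6 h. The passing salt changes of CIPK21 were both in IR29, where it rose from 123.8, 147.3 and 133.5 to 283.3, 247.9 and 232 at 3 h and 163.9, 197.3 and 196 at 6 h, by 0.84 and 0.42 (SE 0.08, limma, adjusted p = 1.3e-07 and 0.00082). Its response at 3 h was larger in IR29 than in Nonabokra and Pokkali, by differences of -0.91 and -0.82 (SE 0.12, limma, adjusted p = 1.1e-05 and 3.6e-05).

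The remaining kinases had few or small passing changes. CIPK12 (LOC4325613), whose overexpression has been reported to raise drought tolerance in rice, was dim, with 5.805 to 33.38 over all arrays. It fell by 0.59 in Pokkali and rose by 0.24 in IR29 at 3 h. CIPK26 (LOC4328383) rose in Nonabokra, by 0.70 at 3 h and 0.38 at 6 h, and in IR29 by 0.30 at 3 h. CIPK2 (LOC4344287) rose by 0.52 in Nonabokra at 3 h (limma, adjusted p = 0.0062), and its other changes did not pass. These values are of a probe set of a kind that can bind related transcripts. The second probe set of the gene passed in all 6 comparisons with changes from -0.34 to 0.85. CIPK20 and CIPK30 were at the floor of the scale, between 3.886 and 4.136 on all arrays, and their passing changes in IR29 were no larger than 0.01.

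From 3 h to 6 h most passing members went down. In Nonabokra 17 were lower at 6 h than at 3 h (10.9% of all probe sets were) and 5 higher (10.2%). In Pokkali 12 were lower (17.1%) and 6 higher (11.1%), and in IR29 12 were lower (8.14%) and 3 higher (6.64%). CIPK5 fell in all cultivars between these times, with changes of -3.20, -1.84 and -0.78 in Nonabokra, Pokkali and IR29 (SE 0.11, limma, adjusted p = 2.2e-14, 1.0e-10 and 2.7e-05). CIPK17 fell likewise, with changes of -1.66, -0.90 and -1.43 (SE 0.11). CIPK25 fell by 1.82 in Nonabokra (SE 0.09, limma, adjusted p = 1.5e-11), CIPK6 fell by 1.26 in Pokkali (SE 0.10, limma, adjusted p = 8.6e-09), and CIPK14 fell by 0.73 in IR29 (SE 0.10, limma, adjusted p = 3.6e-05). CIPK10 and, on its brighter probe set, CIPK7 went the other way in all cultivars: CIPK10 regained 1.75, 1.86 and 1.41 (SE 0.21, limma, adjusted p = 2.5e-06, 1.3e-06 and 7.1e-05), and CIPK7 regained 0.63, 0.69 and 0.48 (SE 0.07). On the second probe set of CIPK7 the regain was 0.90 in Nonabokra and 0.41 in IR29, and in Pokkali there was none, with a change of -0.01 (SE 0.09, limma, adjusted p = 0.95). CBL9 rose by 0.57 in Nonabokra (SE 0.17, limma, adjusted p = 0.018) and CIPK31 by 0.74 in Pokkali (SE 0.22, limma, adjusted p = 0.017), calls that were lost without some single arrays (limma, adjusted p = 0.083 to 0.092 for CBL9 and 0.050 to 0.066 for CIPK31). CIPK25 rose by 0.35 in IR29 (SE 0.09, limma, adjusted p = 0.015), a call lost without IR29 6 h replicate 1, when the change was 0.21 (limma, adjusted p = 0.11), and without IR29 3 h replicate 1, when it was 0.30 (limma, adjusted p = 0.076).

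Some members crossed their control level between the salt times. In Nonabokra, 2 members passed at 3 h and 6 h in opposite directions, CIPK5 and CIPK17 (0.811% of all probe sets). In IR29 this held for 1 member, CIPK17 (0.633%), and in Pokkali for 0 members (0.738%). Both times are read against the same control arrays.

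**Figure D4:**
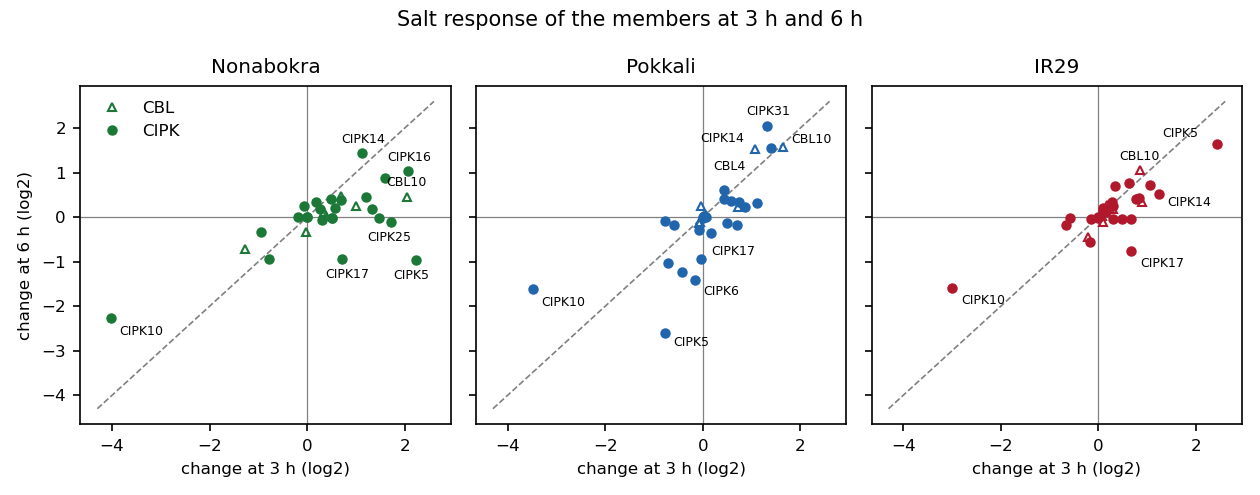
Change at 6 h against change at 3 h for the 31 members in each cultivar, both as differences of log2(intensity + 16) from the same control arrays, with filled circles for CIPKs, open triangles for CBLs and a dashed line of equal change. In Nonabokra CIPK5 lies at 2.24 and -0.96, and in Pokkali CIPK31 lies above the line at 1.31 and 2.05.

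Unstressed cultivars already differed in many members, as they did in many bright probe sets of the array. Nonabokra exceeded IR29 in 11 members (13.4% of all probe sets) and was lower in 12 (42.6%). Pokkali exceeded IR29 in 14 (16.3%) and was lower in 8 (45.5%). Nonabokra exceeded Pokkali in 5 (9.23%) and was lower in 14 (10.1%). In the same order, 52.7%, 64.5% and 44.9% of probe sets with a mean intensity over 100 passed. Of the 23 bright members, 17, 15 and 15 did (73.9%, 65.2% and 65.2%), so the count between Pokkali and IR29 was near its background. Of the 29 members outside the dimmest 40% of probe sets, so without CIPK20 and CIPK30, 21 passed in each comparison with IR29. The shares of all probe sets against IR29 turned with the scaling. With arrays centred on their medians, Nonabokra exceeded IR29 in 21784 probe sets and was lower in 7108, and in 13 members and 9. Pokkali then exceeded IR29 in 23699 probe sets and was lower in 7806, and in 16 members and 7. The count of 23 between Nonabokra and IR29 fell to 15 without IR29 control replicate 1.

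CIPK5 was the member furthest from IR29 at rest, by 2.34 between Nonabokra and IR29 and 3.18 between Pokkali and IR29 (SE 0.11, limma, adjusted p = 1.1e-12 and 4.7e-15). CIPK23 was higher in both than in IR29, by 1.30 and 1.35 (SE 0.08, limma, adjusted p = 1.6e-10 and 5.4e-11), on its brighter probe set. CIPK14 was lowest in Pokkali, by -1.96 against IR29 (SE 0.10, limma, adjusted p = 5.7e-12), while Nonabokra exceeded Pokkali by 1.25 (limma, adjusted p = 1.0e-08). CBL9 was highest in Nonabokra, by 2.11 against Pokkali and 0.98 against IR29, and lower in Pokkali than in IR29, with a difference of -1.14 (SE 0.17, limma, adjusted p = 5.0e-09, 0.00014 and 1.7e-05). CIPK16 was highest in Pokkali, by 1.72 against IR29, and the difference of Nonabokra from Pokkali was -1.28 (SE 0.16, limma, adjusted p = 2.8e-08 and 2.8e-06). The sizes of these 2 CIPK16 differences depend on the pseudocount, since IR29 controls lay between 5.707 and 6.953. With a pseudocount of 1 they were 3.02 and -1.95, and with 64 they were 0.79 and -0.63. The CIPK16 probe set is of a kind that can bind related transcripts.

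CIPK1 and CIPK25 were lower in unstressed Nonabokra than in IR29, with differences of -1.19 and -0.63 (limma, adjusted p = 7.8e-11 and 3.3e-05). CIPK6 and CIPK32 were lower in Nonabokra than in Pokkali, with differences of -0.99 and -0.90 (limma, adjusted p = 1.8e-07 and 2.6e-08). CIPK31 was lowest in Pokkali, by -0.61 against IR29, and Nonabokra exceeded Pokkali by 0.65 (SE 0.22, limma, adjusted p = 0.021 and 0.040), calls that were lost without single control arrays, with an adjusted p of 0.051 to 0.058 against IR29 and 0.059 to 0.16 against Pokkali (limma). Sequence differences between the cultivars within the probes were not analysed here, and their part in these levels was not tested.

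The differences of salt response between cultivars were tested as interactions. At 3 h, 20 members differed between Nonabokra and IR29 (25.4% of all probe sets), 13 between Pokkali and IR29 (46.9%) and 14 between Nonabokra and Pokkali (12.7%). At 6 h the counts were 14 (16.2%), 15 (12.8%) and 13 (13.7%). With quantile normalization the shares of all probe sets for the 3 h differences from IR29 were 19.2% for Nonabokra and 21.5% for Pokkali, with 19 and 13 members. With median centring, the 3 h differences between Pokkali and IR29 split into 6 members higher and 8 lower in place of 7 and 6, where 5310 of all probe sets were higher and 19372 lower. CIPK5, CIPK6, CIPK31, CBL9 and CIPK23 recur among the members furthest apart. The CBL9 response at 3 h was lower in Nonabokra than in IR29 and Pokkali, with differences of -1.59 and -1.25 (SE 0.24, limma, adjusted p = 4.5e-05 and 0.00074). CIPK6 differed between Nonabokra and Pokkali by 1.62 at 3 h (SE 0.14, limma, adjusted p = 5.9e-08) and by 1.39 at 6 h (limma, adjusted p = 5.2e-07). CIPK16 differed between Nonabokra and IR29 by 1.45 at 3 h (SE 0.22, limma, adjusted p = 6.6e-05), and CIPK29 between Pokkali and IR29 by 0.95 (SE 0.10, limma, adjusted p = 6.4e-07).

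**Figure D5:**
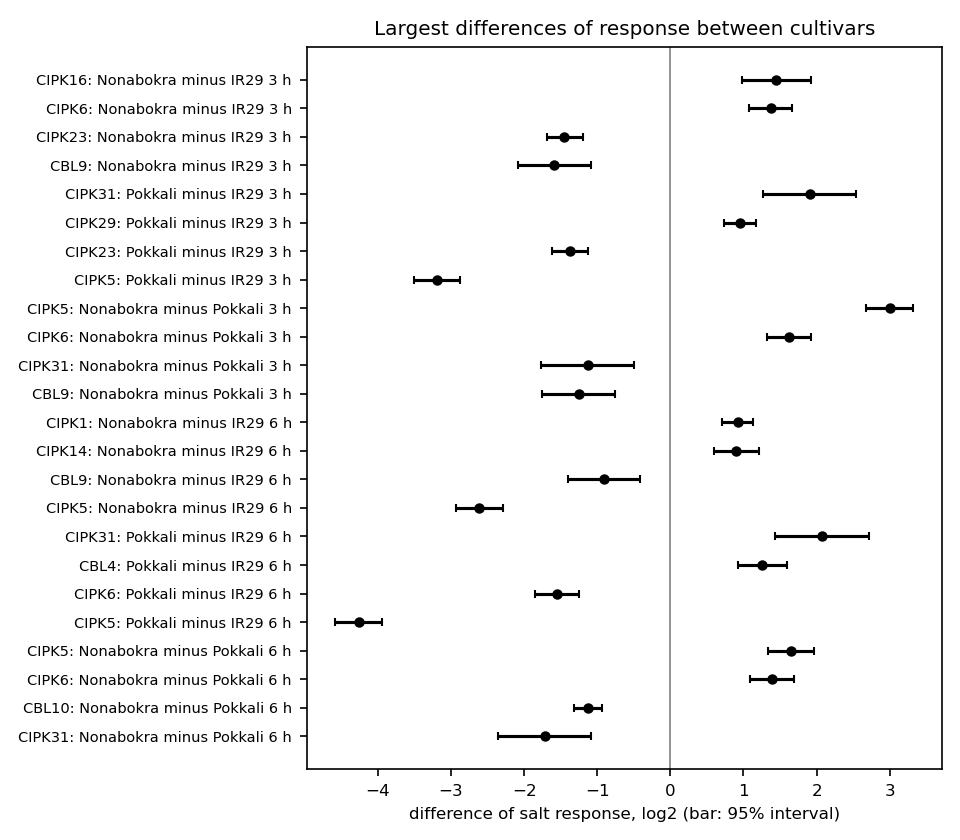
Difference of salt response between 2 cultivars for the members named for these comparisons, in log2 units with the 95% interval as a bar. The interval of every point leaves out 0, and CIPK5 spans from -4.26 (Pokkali minus IR29 at 6 h) to 3.00 (Nonabokra minus Pokkali at 3 h).

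Genes around the family were read from lists chosen by name, and their counts stand beside high backgrounds. Of all probe sets, 28.0%, 25.2% and 64% passed in either direction at 3 h in the order Nonabokra, Pokkali and IR29, and 22.4%, 22.3% and 53.4% passed at 6 h. Among probe sets with a mean intensity over 100 the shares were 66.8%, 61.1% and 67.2%, then 54.7%, 49.5% and 55.7%. Of 13 named ion transport genes, 7 were measured, and SOS1 and the NHX sodium/proton exchangers, matched by no name, were not analysed here. In the order Nonabokra, Pokkali and IR29, 3, 1 and 3 of the 7 rose and 3, 5 and 3 fell at 3 h, and 2, 2 and 3 rose and 4, 4 and 3 fell at 6 h. Of the 6 bright ones, 5, 5 and 6 passed at each time. AKT1, the root potassium channel that CIPK23 activates, fell in 5 comparisons. In IR29 it went from 494.9, 423.8 and 442.7 to 115.3, 126.6 and 132.8 at 3 h and 105.9, 109.1 and 104.5 at 6 h, changes of -1.74 and -1.94 (SE 0.06 at 6 h, limma, adjusted p = 9.7e-15). The Nonabokra changes of AKT1 were -0.09, which did not pass, and -1.12, and those of Pokkali -0.97 and -1.14. The AKT1 probe set is of a kind that can bind related transcripts. Of the 5 root markers, 2 were lower and 3 higher in Nonabokra at 3 h, when AKT1 did not pass, and 1 was lower and 3 higher at 6 h. In Pokkali 2 were lower at each time, and in IR29 4 and 3 were. Lsi1 was lower in all 6 comparisons, and the part of the root markers in the AKT1 values was not tested. HKT1;5, which retrieves sodium from the xylem, fell in Nonabokra (-0.32 and -0.38) and Pokkali (-0.85 and -0.83), and its IR29 changes of -0.13 and -0.15 did not pass. The ammonium transporter AMT1;2 was higher in Nonabokra (0.71 and 1.56), lower in IR29 (-0.89 and -1.45), and in Pokkali lower at 3 h and higher at 6 h (-0.37 and 1.08).

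The SnRK2 kinases, relatives of the CIPKs, were measured for 10 of 10 genes. In the same order, 5, 6 and 7 rose and 4, 2 and 1 fell at 3 h, and 4, 5 and 5 rose and 3, 2 and 1 fell at 6 h. All 10 were bright, and 9, 8 and 8 passed in either direction at 3 h and 7, 7 and 6 at 6 h. The IR29 count at 6 h was close to the share of bright probe sets. SAPK1 rose in all 6 comparisons, by 1.79 in Nonabokra at 6 h (SE 0.07, limma, adjusted p = 6.3e-14) and 2.81 there at 3 h, and SAPK9 fell in all 6, with 3 h changes of -3.53, -3.65 and -1.73. Of the calcium-dependent protein kinases, which hold sensor and kinase in one protein, 20 of 24 were measured, and 4, 4 and 6 rose and 4, 3 and 5 fell at 3 h. At 6 h 4, 4 and 4 rose and 6, 3 and 3 fell, with CPK12 at -1.10 and CPK9 at 0.84 in Nonabokra and CPK13 at 0.87 in Pokkali. Of the 13 bright ones, 7, 6 and 8 passed at 3 h and 8, 7 and 5 at 6 h, near or below the shares of bright probe sets. The probe sets of SAPK9 and CPK12 are of a kind that can bind related transcripts.

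Calmodulins and calmodulin-like proteins are calcium sensors without a kinase of their own, and 26 of 29 were measured. Of these, 10, 10 and 11 rose and 5, 2 and 5 fell at 3 h, and 10, 13 and 10 rose and 3, 6 and 5 fell at 6 h. Of the 17 bright ones, 11, 10 and 12 passed at 3 h, near the shares of bright probe sets, and 10, 14 and 12 at 6 h. CML15 rose by 2.43, 2.92 and 0.46 at 3 h and by 3.40, 3.74 and 0.39 at 6 h, with the smallest changes in IR29. CML31 rose in all 6 comparisons, by 0.55 to 2.32, and CML14 rose in Pokkali by 1.00 and 2.14 and fell in IR29, with changes of -0.34 and -0.46. Of the genes for calcium passage through membranes, 11 of 14 were measured, and 3, 4 and 6 rose and 3, 1 and 2 fell at 3 h. At 6 h 3, 4 and 6 rose and 1, 2 and 1 fell. Of the 8 bright ones, 5, 4 and 5 passed at 3 h and 4, 4 and 4 at 6 h, near or below the shares of bright probe sets. With quantile normalization 5 of the 11 passed in IR29 at 3 h in place of 8. The calcium pump gene ACA5 rose in all 6 comparisons, by 2.38 in Nonabokra at 3 h and 0.49 in Pokkali at 6 h at the extremes. The respiratory burst oxidase gene rbohB, the 1 of its list that was measured, fell in 5 comparisons and had a change of 0.02 in IR29 at 3 h.

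Some members share a neighbourhood in the rice annotation. CIPK29 lies next to CIPK2, CIPK12 next to CIPK30, and CIPK16 next to CIPK27, while CIPK5 and CIPK13 have 1 gene between them. At 3 h in Pokkali CIPK29 changed by 1.11 and CIPK2 by 0.16, the latter not passing on its brightest probe set. On a second probe set CIPK2 went from 673.7, 638.5 and 728.1 in Pokkali controls to 982.7, 933.6 and 972.2 at 3 h, which passed. The contrast of the 2 neighbours thus depends on the probe set. CIPK13 and CIPK27 were not analysed here, so their pairs could not be compared.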

How the data were processed

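The study measured RNA of whole rice seedlings on 27 Affymetrix arrays, 3 in each of 9 groups. The deposited values are linear intensities per probe set. GCOS (Affymetrix's array software) is named per the submitters' processing notes, while the summary and normalization that the authors used are not given in the sources used here. The arrays were not rescaled, since their medians lay between 7.09 and 7.77. The table holds 57381 probe sets, and 187 control probe sets were left out. Intensities deposited by the authors were turned here into log2(intensity + 16). limma 3.58.1 in R 4.3.3 was fitted with 1 mean per group to all arrays, which leaves 18 residual degrees of freedom, and p-values were adjusted (Benjamini-Hochberg) over 57194 probe sets within each of 18 comparisons: salt against control, 6 h against 3 h, unstressed cultivars, and the differences of response between cultivars. The script was tested on simulated data. Probes were paired with genes through the platform's annotation and RefSeq (22436 probe sets with 1 gene, 95 with several, 34663 with none), and the probe set with the highest mean stood for its gene. Coordinates are not printed, because the build behind the probes is not named in the sources used here. Sequences were not used here.

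Members, gene lists and tests were chosen with earlier results of these data known. Statistics are given in full for members that passed with a change of at least 1 and no overlap of arrays, for the 2 highest and 2 lowest passing differences of response in each of 6 comparisons, and for the 3 highest and 3 lowest in the other comparisons. The SOS pair, CIPK5 and CIPK23 were always named, and other members are described by their values. Precision is limited by the number of arrays. The labels do not say whether replicates come from separate cultures, so p-values measure the spread between these arrays. Groups share replicate numbers, which the labels do not explain. Residuals of same-numbered arrays correlated over 0.1 in all 3 pairs for 1 of the 12 pairs of groups compared, unstressed Nonabokra and Pokkali (0.58, 0.24 and 0.27), and a fit with the number as a block left that count at 19. Among pairs not compared directly, this held for Nonabokra and IR29 at 6 h (0.8, 0.51 and 0.49). It also held for Pokkali controls and IR29 at 6 h (0.11, 0.28 and 0.12). These groups enter the 6 h differences of response from IR29. There the block gave 14 passing members for Nonabokra and 14 for Pokkali, against 14 and 15 without it. Alternatives were 9 other settings, each array left out in turn, and, chosen after seeing the data, leaving out the 3 arrays least like their groups.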

Additional observations from a re-analysis of the deposited data

Results flagged for a closer look

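Differences of salt response between cultivars, tested as interactions, singled out 24 results for a closer look (log2 scale, limma). At 3 h, Nonabokra exceeded IR29 by 1.45 for CIPK16 and 1.37 for CIPK6, and the differences for CIPK23 and CBL9 were -1.45 and -1.59. Pokkali exceeded IR29 at 3 h by 1.91 for CIPK31 and 0.95 for CIPK29, with differences of -1.37 for CIPK23 and -3.19 for CIPK5. Nonabokra exceeded Pokkali at 3 h by 3.00 for CIPK5 and 1.62 for CIPK6, with differences of -1.13 for CIPK31 and -1.25 for CBL9.

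At 6 h, Nonabokra exceeded IR29 by 0.92 for CIPK1 and 0.90 for CIPK14, with differences of -0.91 for CBL9 and -2.61 for CIPK5. Pokkali exceeded IR29 by 2.07 for CIPK31 and 1.26 for CBL4, with differences of -1.55 for CIPK6 and -4.26 for CIPK5. Nonabokra exceeded Pokkali by 1.65 for CIPK5 and 1.39 for CIPK6, with differences of -1.12 for CBL10 and -1.72 for CIPK31. The CBL9 difference at 6 h was -0.23 on the second probe set of the gene and did not pass there (limma, adjusted p = 0.46), while both CBL9 differences at 3 h passed on it. The CIPK23 differences rest on the brighter of its 2 probe sets, and those of the other did not pass. The CIPK31 differences at 6 h were 1.78 (Pokkali and IR29) and -1.34 (Nonabokra and Pokkali) without the 3 arrays least like their groups.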

How the results depend on the processing

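Only the member changes named with full statistics were recomputed singly, and no passing one of these changed sign under the alternatives run. The very small changes of CIPK20 and CIPK30 in IR29 at 3 h were not among them. Median centring shifted that comparison by 0.023. Near-even splits of the counts did turn. Unstressed Nonabokra against IR29, with 11 members higher and 12 lower, became 13 and 9 with median centring and 8 and 6 in the fit of only the groups compared. The 3 h differences between Pokkali and IR29 went from 7 higher and 6 lower to 6 and 8 with median centring, and Pokkali at 6 h against control went from 10 and 7 to 8 and 9 in the fit of only those groups. The splits of the 6 h differences between cultivars were within 1 of even and turned likewise, so no direction is read from them. Outside the fits that left out an array, 1118 of the recomputed member changes kept their call, 10 lost it and 2 gained it, and with single arrays left out 3030 kept it, 18 lost it and 3 gained it. The fits of only the groups compared, which have fewer arrays to estimate the spread, lowered the count of passing members to 9 (from 17) for IR29 at 6 h against control, to 5 (from 15) for IR29 at 6 h against 3 h, and to 14 (from 23) for unstressed Nonabokra against IR29. That last count ranged from 15 to 24 with single arrays left out. Such fits also ended the IR29 calls from 3 h to 6 h for CIPK10 (limma, adjusted p = 0.078), CIPK7 (0.069) and CIPK14 (0.054), and the CBL9 difference between Nonabokra and IR29 at 6 h (0.098). Residuals of same-numbered arrays correlated over 0.1 throughout for 3 of the 36 pairs of groups. For the other pairs of groups only the number is known to be shared. With the replicate block the 6 salt counts were 24, 20, 22, 17, 16 and 19, no count moved by over 1.5 times, and CBL4 in IR29 at 6 h passed (limma, adjusted p = 0.026). Without the 3 arrays least like their groups, 25, 20, 24, 18, 20 and 20 members passed in the salt comparisons. In the lists, quantile normalization gave 5 passing genes of calcium passage in IR29 at 3 h, in place of 8. Changes of dim members depend on the pseudocount: CBL4 in Pokkali at 6 h was 2.01 with 1 and 0.89 with 64. The files give no counts, so depth cannot be stated, and at the floor near 4 no change can be read. Salt at 3 h has only a control of 6 h.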
